A study of Homo sapiens with 4 samples.

Results

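The genes described here encode the protein subunits of the cytosolic ribosome, 49 of the large subunit (RPL genes, with RPLP0, RPLP1 and RPLP2) and 32 of the small subunit (RPS genes, with RPSA). They were taken by name from the deposited table: RPL or RPS followed by digits and at most A, L, AL or X, with pseudogenes, the RPS6K kinases and the RPS4Y genes left out. The rule found 81 of 59050 listed genes, and it used no measured value. Of these, 79 had enough counts for a test, against 17564 genes in all. RPL3L and RPL10L were below the count filter, and RPL6 is not analysed here. The RNA-seq libraries, 4 in all, came from HUES8, an established line of human embryonic stem cells kept in mTeSR1 on Matrigel. Per the labels, 2 libraries have the genotype CPT2 KO and 2 the genotype WT, no agent is named, and the treatment field reads WT in all 4. CPT2 is the inner-membrane enzyme that releases fatty acids from carnitine for oxidation in mitochondria. The labels do not say how CPT2 was targeted, whether the edited cells are 1 clone, or whether libraries came from separate cultures, so the spread between replicates may be technical.

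A cytosolic ribosome holds 1 copy of nearly every one of these proteins, around ribosomal RNA that makes the catalytic centre and most of the mass. The acidic proteins of the P stalk, which recruit the factors that drive translation, are an exception and are present as a pentamer. Ribosomal protein mRNAs are among the most abundant in dividing cells, and most begin with a 5′ terminal oligopyrimidine (TOP) tract, a C followed by a run of pyrimidines, through which mTORC1 and LARP1 control their translation and stability. Human cells also hold many processed pseudogenes of these genes and a few diverged paralogues. Stem cells keep large pools of ribosome components, and haploinsufficiency of some of these genes causes Diamond-Blackfan anaemia.

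The starts below show the feature that most of these mRNAs share, for genes of high level, for genes at the upper end of the difference between the groups, and for genes without the tract. Each shows 10 bases before and 20 bases from the annotated start on the sense strand, from RefSeq on GRCh38.p14, with capitals on the pyrimidine run that begins with a C at the start.
RPLP0, chr12:120201092-120201121, minus strand: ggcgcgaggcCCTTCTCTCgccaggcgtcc
RPSA, chr3:39406710-39406739, plus strand: tgccgcctgtCTTTTCCgtgctacctgcag
RPL13A, chr19:49487598-49487627, plus strand: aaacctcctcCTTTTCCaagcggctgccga
RPS18, chr6:33272065-33272094, plus strand: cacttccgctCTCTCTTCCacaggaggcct
RPL38, chr17:74203668-74203697, plus strand: aagtctcgttCTTTTTCgtccttttccccg
RPL39, chrX:119791611-119791640, minus strand: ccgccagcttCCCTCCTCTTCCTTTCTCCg
RPL36A, chrX:101391001-101391030, plus strand: ctcgcggtttCTTTCTTTCCgcgccgatag
RPL36AL, chr14:49620607-49620636, minus strand: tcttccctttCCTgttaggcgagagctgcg
RPS27L, chr15:63157458-63157487, minus strand: gatgccgagcgcagatcgcttgcagcttgc
RPL3, chr22:39319604-39319633, minus strand: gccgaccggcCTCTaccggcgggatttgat

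The table of starts held 64 of the 81 genes. A C at the start followed by at least 4 pyrimidines, read on the sense strand, was found in 46 of the 64 (71.9%), against 1404 of 27305 gene symbols in the table (5.14%). RPL39 carried the longest run of those printed, 19 pyrimidines. The paralogues RPL36AL and RPS27L had runs of 3 and 0, and RPL3, the protein next to the peptidyl transferase centre, had a run of 4, 1 short of the definition. The letters CCGGAAG, a core of ETS factor sites, stood on either strand within 250 bases before and 50 after the start in 23 of the 64 (35.9%), against 12.2% of all symbols. TATAAA stood in 6 of the 64 (9.38%), against 3819 of the 27305 symbols. A match describes letters and not a working site, and an annotated start can differ from the one these cells use.

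Libraries held 20219396 and 16887789 counts in those labelled CPT2 KO and 18356754 and 20460031 in those labelled WT. The CPT2 transcript ran against the labels: it had 233 and 170 counts in the libraries labelled CPT2 KO, against 52 and 72 in those labelled WT (log2 fold change 1.78, SE 0.28, edgeR adjusted p = 0.021). Every direction below is therefore between libraries as labelled. WT replicate 1 stood apart: chi-square per degree of freedom over the 79 tested ribosomal protein genes was 12.4 between the KO replicates and 71.5 between the WT replicates. Mitochondrially encoded genes took 7.84% and 7.73% of counts in libraries labelled CPT2 KO and 4.15% and 7.21% in those labelled WT. All 12 pluripotency markers had counts in every library, with summed levels of 10680 and 12012 CPM (counts scaled to library size) under the KO label and 10406 and 10992 CPM under the WT label. Of 14 mesendoderm and endoderm markers in the table, 12 were tested. With the KO label, 3 were called higher (NODAL, FGF8, GATA4, against 0.37% of all tested genes). The markers summed to 331 and 97.4 CPM with the KO label against 22.6 and 17.7 CPM with the WT label, where SOX17 and GATA6 were at 0. Neuroectoderm markers summed to 129 and 135 CPM against 196 and 163 CPM, mostly from ZIC1. Of 7 tested, 2 were called lower (SOX1, SIX6, against 0.0626% of all tested genes). OTX2 and PAX6 were the 2 above 0 (log2 fold changes 1.23 and 0.96), not called. Fibroblast markers summed to 461 and 446 CPM against 481 and 507 CPM, mostly from THY1 and COL1A2. COL3A1, DCN, LUM and ACTA2 were below the count filter. Of the 5 tested, 3 were above 0 and 2 below, with TAGLN highest at 1.21. The part of these differences in the results below was not tested.

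Ribosomal protein genes took 4.66% and 5.23% of all counts in the libraries labelled CPT2 KO, against 4.71% and 4.55% in those labelled WT. KO replicate 2 was the highest of the 4, while KO replicate 1 lay between the WT replicates, so the groups overlapped in this share of all counts. The means were 4.95% ± 0.405 with the KO label and 4.63% ± 0.117 with the WT label (SD, n = 2 each), a difference of 0.317 percentage points with an exact two-sided permutation p = 0.667, in a design whose smallest p is 0.333. With mitochondrially encoded counts left out of the total, the shares were 5.06% and 5.67% with the KO label against 4.92% and 4.90%, without overlap. Small subunit genes alone took 1.77% and 1.99% of all counts against 1.74% and 1.71%, also without overlap. For large subunit genes these were 2.89% and 3.25% against 2.98% and 2.84%, with overlap. Large subunit genes had 1.63 and 1.63 counts for each small subunit count in KO-labelled libraries, against 1.71 and 1.66 in WT-labelled libraries (exact permutation p = 0.333). In bulk RNA, fewer cells of a type and less RNA per cell cannot be told apart.

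Levels spanned a wide range although the subunits assemble at nearly equal numbers. Over the 79 tested genes, the mean level per kilobase of the deposited gene length ran from 1.37 to 836 CPM per kb, with a median of 141. RPL41, a peptide of 25 residues on the large subunit, was highest at 836 ± 89.4 CPM per kb (SD over 4 libraries). RPS12, RPL13A, RPS2, RPL7A and RPLP0 followed at 694 ± 87.6, 688 ± 46.0, 664 ± 61.6, 647 ± 39.9 and 562 ± 45.8 CPM per kb, and the first 4 of these differ by less than their spread. RPS2 sits at the mRNA entry side of the small subunit, RPLP0 is the base of the stalk, and RPL13A and RPL7A are structural proteins of the large subunit. The lowest were RPL10L at 0.09 and RPL3L at 0.12 CPM per kb, paralogues known from testis and from muscle. RPS10, RPS27L and RPL36A came next at 1.37, 2.32 and 3.14 CPM per kb.

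The order depended on which length was used. Deposited lengths join all exons of a gene and ran from 639 to 9845 bases, against 75 to 1281 coding bases. Per coding kilobase, the ratio of the 90th to the 10th percentile was 5.14, against 17.3 per deposited kilobase. RPL41 stayed at rank 1 and RPLP0 was at rank 4, while RPS12 moved to rank 40. RPL41 has the fewest coding bases, 75, against a deposited length of 1108. Counts are not limited to coding bases, so division by them can favour genes with very short coding sequences.

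**Figure D1:**
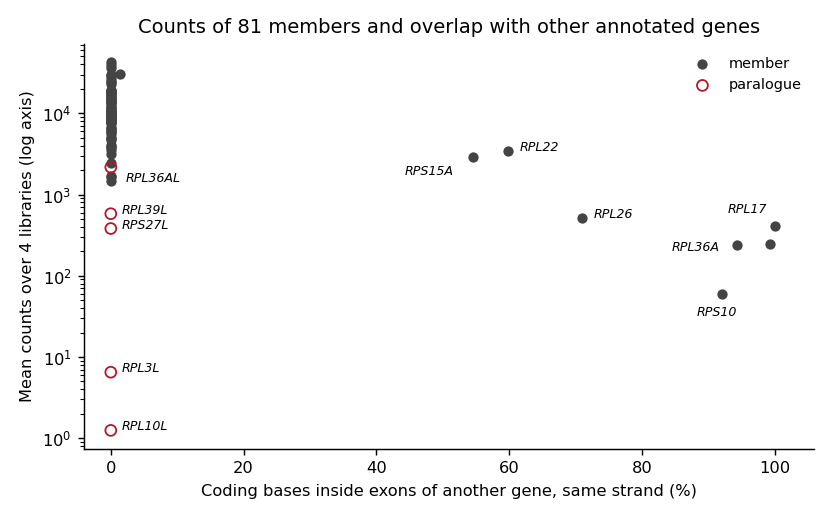
Mean count over the 4 libraries (log axis) against the share of each gene's coding bases that lie in exons of another annotated gene on the same strand. The 7 genes at 40% or more had a median mean count of 413, against 10227 for the other 69, with the 5 paralogues left out.

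Many of the low values shared an annotation feature. Without the 5 paralogues, 7 genes had at least 40% of their coding bases inside exons of another gene on the same strand in GENCODE 29, among them RPL17 (100% of coding bases, RPL17-C18orf32), RPL36A (94.3%, RPL36A-HNRNPH2), RPS10 (92.1%, RPS10-NUDT3), RPL26 (71.0%, AC135178.2), RPL22 (59.9%, AL031847.2) and RPS15A (54.6%, AC138811.2). Their mean counts ran from 59.3 to 3449, with a median of 413, while the other 69 ran from 1465 to 42315, with a median of 10227. The overlapping genes' own rows held 0 or 1 count in every library. RPS10, a protein of the small subunit's head, lies at chr6:34417454-34426125 (GRCh38, minus strand) and had 65 and 62 counts in libraries labelled CPT2 KO and 55 and 55 in those labelled WT. RPL17, at the exit tunnel of the large subunit, lies at chr18:49488453-49492523 (minus strand) and had 445 and 338 counts against 459 and 410. Both were low in all 4 libraries, and the levels of the 7 are uncertain in both groups. How the counting treated reads that fall in more than 1 gene is not given in the sources used here, and its part was not tested. RPS23 and ATG10 (54.1% of coding bases) and RPL30 and AP003352.1 (51.6%) overlap on opposite strands, and their reads cannot be told apart without strand.

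No ribosomal protein gene passed the test between the groups. Of the 79 tested, 0 were called higher and 0 lower by edgeR (adjusted p under 0.05), against 65 higher (0.37%) and 11 lower (0.0626%) of all tested genes, or 76 in either direction (0.433%), and the lowest adjusted p was 0.370, for RPL36A. DESeq2 and limma-voom also called 0. At an unadjusted p under 0.05, 10 genes had higher values with the KO label and 0 had lower ones, against 4.83% and 4.25% of all tested genes. The differences were small and mostly of one sign: the median log2 fold change was 0.18, against 0.0012 over all tested genes, and 67 of 79 were above 0, against 50.2% of all tested genes. The 2 groups did not overlap in 42 genes, all with higher values under the KO label, against 21.1% of all tested genes, and in 0 with lower values, against 19.8%.

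Individual libraries stood at the ends of this pattern. KO replicate 2 had the highest level in 68 of 79 genes (29.2% of all tested genes) and WT replicate 1 the lowest in 41 (32.5%). The median deviation from the gene's mean over the 4 libraries, in log2 CPM, was -0.024 and 0.19 in KO replicates 1 and 2, against -0.094 and -0.082 in WT replicates 1 and 2. By this median KO replicate 1 lay nearer to the WT libraries, while gene by gene, in chi-square per degree of freedom, it was nearest to KO replicate 2 (12.4), then to WT replicate 2 (14.1) and WT replicate 1 (101). Without KO replicate 2 the median log2 fold change was 0.071, and without KO replicate 1 it was 0.28, still with 0 calls. Without WT replicate 2, 0 genes were called lower (3.87% of all tested genes) and 6 were called higher (3.4%): RPL36AL, RPL39L, RPL38, RPL39, RPL35A and RPL36A. That fit sets both KO libraries against WT replicate 1 alone and assumes that it varies as they do.

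**Figure D2:**
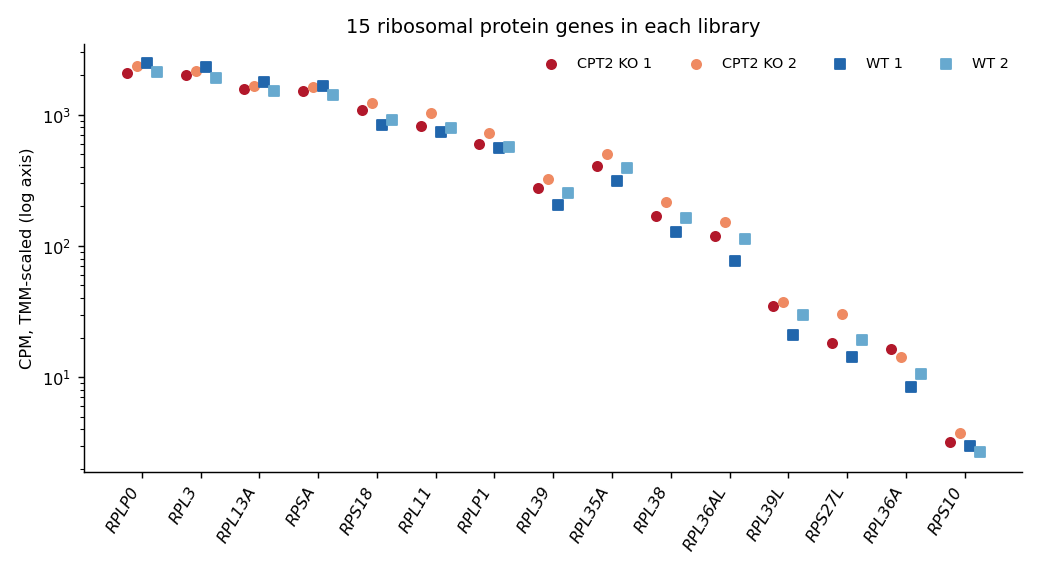
CPM (log axis) of some of the ribosomal protein genes that the text describes, 1 point per library, libraries labelled CPT2 KO left of those labelled WT. KO replicate 2 was the highest library in 68 of the 79 tested genes.

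Among large subunit genes, 38 of 47 log2 fold changes were above 0 (median 0.18, range -0.08 to 0.69), and none was called. RPL3 and RPL4, long proteins that reach into the core of the large subunit, had values near 0. RPL3 had 1993 and 2142 CPM in libraries labelled CPT2 KO, against 2321 and 1916 CPM in those labelled WT (log2 fold change -0.04, adjusted p = 0.962), with WT replicate 1 the highest of the 4. RPL4 had 1844 and 2056 CPM against 2013 and 1790 CPM (0.04, adjusted p = 0.960), and RPL13A and RPL7A, at 1574 and 1660 against 1769 and 1519 CPM and at 1385 and 1487 against 1554 and 1363 CPM, were, like RPL3, highest in WT replicate 1. Some small proteins lay at the other end. RPL38, known from mice to be needed for translation of Hox mRNAs, had 169 and 215 CPM against 127 and 164 CPM. Both KO-labelled libraries were above both WT-labelled ones, with means of 192 ± 32.1 and 146 ± 26.1 CPM (SD, n = 2 each), for a log2 fold change of 0.40 (SE 0.17, adjusted p = 0.519). With 1 library left out it was 0.56 without KO replicate 1, 0.22 without KO replicate 2, 0.22 without WT replicate 1 and 0.59 without WT replicate 2. RPL39, which lines the exit tunnel, had 278 and 321 CPM against 206 and 252 CPM (0.39, adjusted p = 0.467), again without overlap. RPL35A had 408 and 501 CPM against 313 and 392 CPM (0.37, adjusted p = 0.529), also without overlap. RPL41 had 904 and 1063 CPM against 825 and 915 CPM (0.18, adjusted p = 0.733), with KO replicate 1 below WT replicate 2.

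Among small subunit genes, 29 of 32 log2 fold changes were above 0 (median 0.19, range -0.06 to 0.53), and none was called. The medians of the subunits differed by -0.016, large minus small. RPS18, which contacts the large subunit at the head of the small one, had 1084 and 1230 CPM in libraries labelled CPT2 KO, against 841 and 918 CPM in those labelled WT. The groups did not overlap, with means of 1157 ± 104 and 879 ± 54.3 CPM (SD, n = 2 each), for a log2 fold change of 0.40 (SE 0.14, adjusted p = 0.426). RPS12 had 456 and 517 CPM against 403 and 397 CPM (0.28, adjusted p = 0.567), also without overlap. RPS2 and RPSA, also known as the laminin receptor precursor, overlapped between the groups. RPS2 had 1455 and 1647 CPM against 1763 and 1474 CPM (-0.06, adjusted p = 0.931), and RPSA had 1521 and 1637 CPM against 1651 and 1419 CPM (0.04, adjusted p = 0.954).

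Values of the 3 stalk genes differed in size. RPLP0, the anchor, had 2068 and 2329 CPM with the KO label and 2456 and 2113 CPM with the WT label, with means of 2198 ± 185 and 2284 ± 242 CPM (SD, n = 2 each), for a log2 fold change of -0.06 (SE 0.15, adjusted p = 0.938), which was 0.03 without KO replicate 1 and 0.06 without WT replicate 1. Its partners RPLP1 and RPLP2, the small acidic proteins bound to it in pairs, did not overlap between the groups. RPLP1 had 596 and 727 CPM against 554 and 570 CPM (0.23, adjusted p = 0.648), and RPLP2 had 342 and 401 CPM against 306 and 321 CPM (0.24, adjusted p = 0.624). RPLP0 has 951 coding bases, RPLP1 342 and RPLP2 345.

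Values of the difference between the groups ordered with the length of the coding sequence. The median log2 fold change was 0.30 in the 11 genes under 300 coding bases, 0.25 in 28 genes of 300 to under 450, 0.18 in 19 genes of 450 to under 600 and 0.04 in 21 genes of 600 or more. All 11 genes of the shortest class were above 0, against 15 of the 21 longest. Non-overlap with higher values under the KO label was found in 8 of the 11 and 6 of the 21, and with lower values in 0. Among all tested genes 50.2% were above 0, and 21.1% did not overlap with higher values and 19.8% with lower values. Outside the ribosome, 92 of 258 genes under 300 coding bases did not overlap with higher values and 34 with lower values. Of 12211 genes of 600 or more, these were 2350 and 2691. For higher values, the longest class was thus near the general share. Across the 79 genes, log2 fold change and log10 coding bases had a Pearson r of -0.57 and a Spearman rho of -0.64. The points share 4 libraries and genes are not independent replicates, so this is a description.

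**Figure D3:**
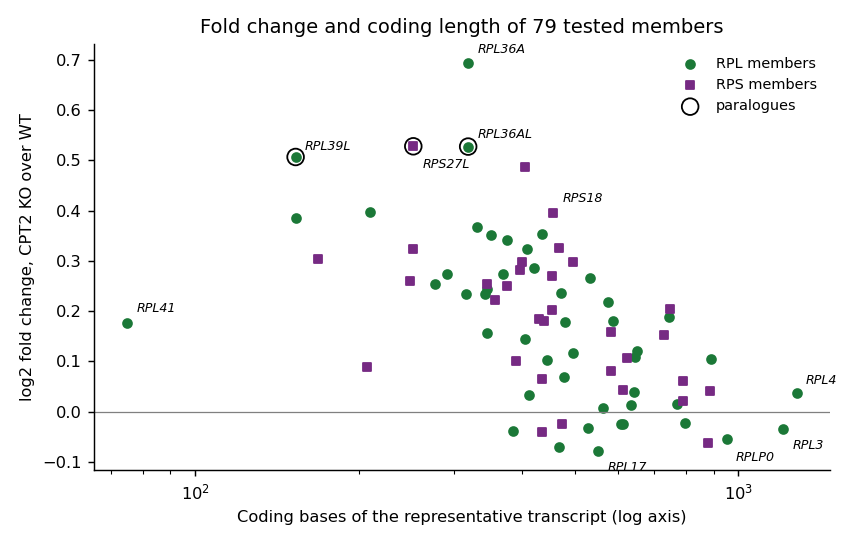
Log2 fold change, CPT2 KO over WT as labelled, against coding bases (log axis) for the 79 tested genes, large and small subunit genes in separate colours. Medians were 0.30 in the shortest class and 0.04 in the longest.

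The relation was present with any 1 library left out, a step added after the data were seen, with r of -0.58 without KO replicate 1, -0.49 without KO replicate 2, -0.31 without WT replicate 1 and -0.62 without WT replicate 2. Between single libraries, the difference in log2 CPM had r of 0.21 for KO replicate 1 minus KO replicate 2 and 0.65 for WT replicate 1 minus WT replicate 2, so the WT replicates differed along length as well. Correlations of each library's deviation with log10 coding bases were r = -0.38 and -0.56 in KO replicates 1 and 2, and 0.63 and -0.42 in WT replicates 1 and 2. Deviations are taken from the mean of the 4 libraries and sum to about 0, so these 4 slopes are not independent. KO replicate 2 had a median deviation of 0.26 in the shortest class and 0.11 in the longest, whereas WT replicate 1, the library with the opposite sign, had -0.28 and 0.07. WT replicate 2 had -0.02 and -0.09. Genes outside the ribosome also had lower values with greater length, with median log2 fold changes of 0.19 in 258 genes under 300 coding bases, 0.11 in 565, 0.07 in 776 and -0.02 in 12211 genes of 600 or more (r = -0.13 over 13810 genes). Their shortest and longest classes lay almost as far apart as those of the ribosomal genes, and the 2 trends were not tested against each other. Their median deviation in WT replicate 1 was -0.20 in the shortest class and 0.02 in the longest. With each library's trend on coding length removed, a step added after the data were seen, the median log2 fold change of the ribosomal genes was 0.08, RPL41 was at -0.15, and calls stayed at 0. The part of library preparation or RNA quality in this trend was not tested.

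**Figure D4:**
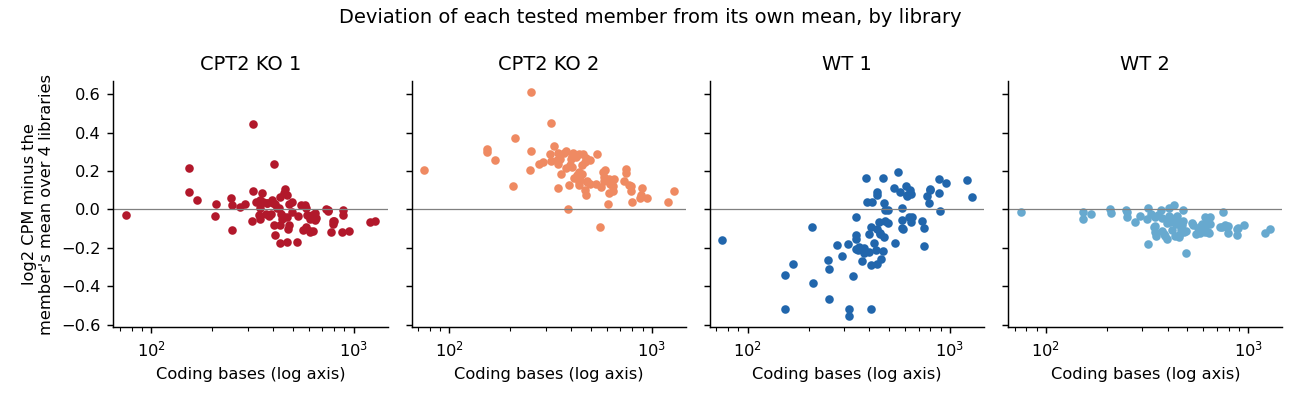
Deviation of each library from the gene's mean over the 4 libraries (log2 CPM) against coding bases (log axis), 1 panel per library, libraries labelled CPT2 KO first. The slope is upward in WT replicate 1 (r = 0.63) and downward in the other 3 libraries.

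The paralogues were measured apart from their parents, with the limit that reads shared by near-identical sequences could fall to either. RPL36AL, a retrotransposed copy on chromosome 14 that codes for a protein nearly identical to RPL36A, gave 87.9% and 91.4% of the pair's counts with the KO label (95% exact binomial intervals 86.6 to 89.1% and 90.3 to 92.4%) and 90.1% and 91.4% with the WT label (88.5 to 91.5% and 90.2 to 92.4%). It had 120 and 153 CPM against 76.2 and 113 CPM, with means of 136 ± 23.3 and 94.4 ± 25.8 CPM (SD, n = 2 each), for a log2 fold change of 0.53 (SE 0.20, adjusted p = 0.467). RPL36A had 16.4 and 14.3 CPM against 8.40 and 10.6 CPM, with means of 15.4 ± 1.48 and 9.52 ± 1.58 CPM, the largest log2 fold change of the 79 genes (0.69, SE 0.22, adjusted p = 0.370). Both genes were without overlap between the groups, and since RPL36A is one of the 7 overlapped genes, the pair's shares are uncertain. RPL36AL was called in the fit with replicate numbers as a block (0.54, adjusted p = 0.0362, where 1.16% of all tested genes were called higher and 0.615% lower) and with no filter on low counts (0.52, adjusted p = 0.0409, with 0.892% higher and 0.607% lower), and its adjusted p ran from 0.000401 without WT replicate 2 to 0.999988 without KO replicate 2.

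RPL39L, a paralogue best known from the testis, gave 11.2% and 10.4% of its pair with RPL39 under the KO label and 9.24% and 10.6% under the WT label, and the ranges overlapped. Its levels were 34.8 and 37.3 CPM against 21.0 and 29.8 CPM, without overlap, with means of 36.1 ± 1.74 and 25.4 ± 6.21 CPM (SD, n = 2 each), for a log2 fold change of 0.51 (SE 0.19, adjusted p = 0.468). RPS27L, a p53 target in human cells, gave 3.61% and 4.84% of its pair with RPS27 against 3.55% and 3.88%. It had 18.3 and 30.1 CPM against 14.3 and 19.2 CPM, where KO replicate 1 was below WT replicate 2 (0.53, SE 0.26, adjusted p = 0.580). It was at 0.13 without KO replicate 2 and 0.85 without KO replicate 1. RPS27 had 487 and 592 CPM against 387 and 475 CPM (0.32, adjusted p = 0.572). RPL3L was counted 4 and 4 times with the KO label and 11 and 7 times with the WT label, or 0.00993% and 0.0112% of the RPL3 pair against 0.0257% and 0.0177%. RPL10L was counted 1 and 4 times against 0 and 0, where a count of 0 allows up to 0.0206% and 0.0212% of the RPL10 pair. These intervals and limits cover counting error only.

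A short list of 9 genes mutated in Diamond-Blackfan anaemia, which leaves out several genes linked to it more rarely, had 0 called by edgeR, DESeq2 or limma-voom and 1 at an unadjusted p under 0.05 (4.83% of all tested genes). Its median log2 fold change was 0.26, against 0.18 for the ribosomal genes together. The groups did not overlap in 7 of the 9, all with higher values under the KO label (21.1% of all tested genes). For the ribosomal genes together this was 42 of 79. RPS19, the most often mutated of them, had 433 and 506 CPM with the KO label and 482 and 416 CPM with the WT label (0.06, adjusted p = 0.922), with the groups overlapping. RPL5 and RPL11, which with the 5S RNA bind MDM2 when ribosome assembly is disturbed, had 999 and 1081 CPM against 996 and 938 CPM (0.11, adjusted p = 0.841) and 818 and 1023 CPM against 741 and 791 CPM (0.26, adjusted p = 0.628). Both were without overlap, RPL5 only narrowly. RPS26, at the mRNA exit site, had 205 and 260 CPM against 184 and 206 CPM (0.25, adjusted p = 0.642), with KO replicate 1 just below WT replicate 2. At the low end of the genes without overlap stood RPL14 (log2 fold change 0.11), RPS3 (0.15), which also acts in ribosome-associated quality control, and RPL30 (0.16).

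Start sequence and difference were also set side by side. The 46 tested genes with a C and at least 4 pyrimidines at the start had a median log2 fold change of 0.22 (range -0.06 to 0.69), and the 17 matched genes without it 0.14 (-0.08 to 0.53). Their median coding lengths also differed, 441 against 552 bases. RPL39 and RPL36A, with runs of 19 and 10 at the start printed above, and RPL36AL and RPS27L, with 3 and 0, were all in the upper end of the values.

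The table listed 1136 pseudogene rows, of which 1124 were named after 75 of the 81 genes and 12 after RPL6. Of the 1136, 794 had no count in any library, 93 were tested, and together they took 0.172% and 0.192% of counts in libraries labelled CPT2 KO against 0.183% and 0.171% in those labelled WT. The largest was RPS2P5, with 7414 and 7233 counts against 7907 and 7738, and the rows named after RPS2 summed to 31.2% of the RPS2 counts. The rows named after RPS10 came to 55.7% of its counts and those after RPS28 to 44.6%, so for these parents the split of reads is uncertain. Adding each parent's pseudogene counts to it left the calls at 0 and the median log2 fold change at 0.18.

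Of the 93 tested pseudogenes, 1 was called higher (0.37% of all tested genes) and 0 lower (0 at an unadjusted p under 0.05, and 0 by DESeq2 and limma-voom). Of those not called, RPSAP58 and RPL13P12 had log2 fold changes of -0.70 and -0.45, with WT replicate 1 the highest library. RPL24P4 and RPSAP47 were at 0.42 and 0.39, with WT replicate 1 the lowest library. RPS6P12, a processed copy of the small subunit gene RPS6 at chr9:82744067-82744792 (GRCh38, minus strand), rose in the libraries labelled CPT2 KO, with 103 and 77 counts against 8 and 16 in those labelled WT. In CPM this was 5.10 and 4.64 against 0.43 and 0.78, with means of 4.87 ± 0.324 and 0.605 ± 0.243 (SD, n = 2 each), for a log2 fold change of 2.98 (SE 0.44, adjusted p = 0.0143). No exon of another annotated gene overlapped it. RPS6 itself, the substrate of S6 kinase, had 1277 and 1482 CPM against 1125 and 1270 CPM (0.20, adjusted p = 0.699). The pseudogene stayed under an adjusted p of 0.05 in every alternative fit in which it was tested (1.97e-07 to 0.0375), did not pass a threshold of 0.01 in the fit above, and was left out by the stricter filter and where its counts were added to RPS6.

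Genes that work around the ribosome were set beside its proteins in further lists, and no gene of those described from here on was called by edgeR, DESeq2 or limma-voom. FAU, which makes a ribosomal protein as a fusion with a ubiquitin-like protein, had 131 and 153 CPM with the KO label and 131 and 124 CPM with the WT label (log2 fold change 0.15, adjusted p = 0.760). RPL22L1, the paralogue of RPL22, had 48.5 and 59.0 CPM with the KO label and 22.5 and 46.9 CPM with the WT label (0.63, adjusted p = 0.647), without overlap but with WT replicate 1 far below the other 3. RPL26L1 was at 0.35 and RPL7L1 at 0.20. The 42 ribosome biogenesis factors had a median of 0.22, with 38 above 0 (50.2% of all tested genes) and 6 higher at an unadjusted p under 0.05 (4.83%). Their median deviation was 0.01 and 0.22 in KO replicates 1 and 2, against -0.26 and 0.04 in WT replicates 1 and 2. The median log2 fold change was 0.32 without KO replicate 1, 0.11 without KO replicate 2, 0.09 without WT replicate 1 and 0.39 without WT replicate 2. NPM1 and NCL, abundant nucleolar chaperones, had 2382 and 2810 CPM against 2491 and 2416 CPM (0.08) and 1949 and 2198 CPM against 1623 and 1989 CPM (0.20), and NOP56, of the box C/D methylation complex, had 356 and 393 CPM against 283 and 319 CPM (0.31, adjusted p = 0.529). Of 14 tested hosts of small nucleolar RNAs, mostly noncoding genes, several of which are known to begin with a TOP tract, 12 were above 0 and 4 were higher at an unadjusted p under 0.05. Their median log2 fold change was 0.30, and it was 0.12 without KO replicate 2, the lowest value with 1 library left out, and 0.41 without WT replicate 2, the highest. GAS5 had 211 and 257 CPM against 170 and 195 CPM (0.36, adjusted p = 0.511), without overlap.

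**Figure D5:**
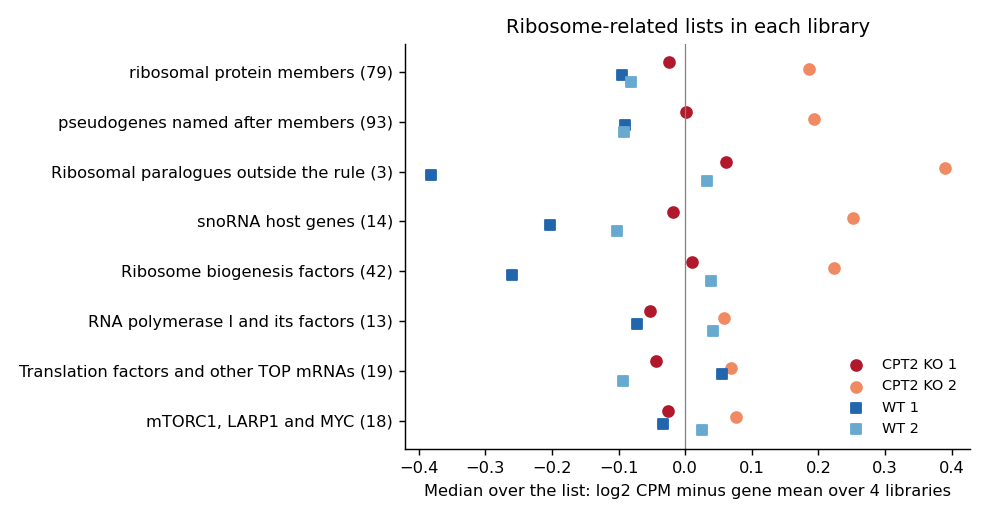
Median deviation of each gene list in each library from the genes' means over the 4 libraries (log2 CPM), libraries labelled CPT2 KO before those labelled WT. Ribosomal proteins, their pseudogenes, snoRNA hosts and biogenesis factors were highest in KO replicate 2, at 0.19, 0.19, 0.25 and 0.22.

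A list of 20 translation factors and other proteins known to be made from TOP mRNAs had 19 genes tested. The other, EEF1G, had 0 counts in every library, and the cause was not tested. The list had a median log2 fold change of 0.02, with 11 of 19 above 0 and a range of -0.26 to 0.22. In it, 0 were called (0 at an unadjusted p under 0.05). The list's difference from the ribosomal genes was not tested. TPT1 was highest at 0.22, and NACA and EEF1B2, subunits of the nascent chain complex and of the exchange factor for EEF1A1, were both at 0.19. EEF1A1, which brings aminoacyl-tRNA to the ribosome, had 12375 and 13029 CPM with the KO label and 15506 and 12407 CPM with the WT label (-0.14, adjusted p = 0.838). EEF2, the translocase, had 2414 and 2445 CPM against 3390 and 2447 CPM (-0.26, adjusted p = 0.674). In both, WT replicate 1 stood above the other 3 libraries, the reverse of its place in the short ribosomal genes. RNA polymerase I and its factors had a median of 0.03 over 13 genes, the mTORC1, LARP1 and MYC list 0.04 over 18 and the p53 list of ribosome surveillance -0.003 over 7, with 0 called and, at an unadjusted p under 0.05, 1 lower gene in the mTORC1 list. LARP1, the TOP-binding repressor, had 538 and 597 CPM against 682 and 680 CPM (-0.26, adjusted p = 0.599), without overlap.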

How the data were processed

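The deposited table gives 1 raw read count per gene and library, with no normalization, and a length for each gene, per its header. HISAT2 2.1.0, featureCounts 1.6.4 and hg38 (GRCh38) are named in the submitters' processing notes. For the annotation release, the strand setting and the handling of reads with several alignments or in several genes, the entry is: not given in the sources used here.

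The 4 libraries were grouped by the genotype label. Counts were scaled with TMM factors and filtered with filterByExpr, and all 17564 tested genes were fitted in edgeR 4.0.16 (R 4.3.3) with the quasi-likelihood F-test, robust estimation and group as the only term. P-values were adjusted over all of them by Benjamini-Hochberg at a threshold of 0.05. DESeq2 1.42.0 and limma-voom (limma 3.58.1) were alternatives, as were other scalings and filters, the replicate number as a block, leaving out each library, scaling without the ribosomal genes and adding pseudogene counts. Fold changes are CPT2 KO over WT as labelled, and the SE is the size of the log2 fold change over the square root of F. CPM per kb divides by the deposited length. Coordinates, coding bases and overlaps came from GENCODE 29 on GRCh38 (all 81 genes matched by symbol). Total counts of 16887789 to 20460031 make 1 count worth 0.0489 to 0.0592 CPM.

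The genes and lists were chosen with earlier results of these data known. Named are the 5 highest and 5 lowest log2 fold changes among genes without overlap between the groups, the 6 highest and 6 lowest levels per kilobase, the stalk genes and RPSA, the paralogues with their parents, RPS19, RPL5, RPL11 and RPS26, and in companion lists called genes and at most 3 more by level. RPL4, RPL17, RPL35A, RPS18, RPS6, EEF1G, the overlapped genes and the pseudogenes were named after their values were seen. Some genes that this rule names are not reported here.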

Additional observations from a re-analysis of the deposited data

How the results depend on the processing

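Calls among ribosomal protein genes were 0 under most alternatives, 1 with no filter on low counts, 1 with the replicate block and 0 to 6 over fits that leave out 1 library. Calls over all tested genes, 65 higher and 11 lower, became 279 and 190 with no filter, 35 and 7 with at least 10 counts in every library, 204 and 108 with the replicate block, 147 and 47 in DESeq2, and 31 and 2 at a threshold of 0.01. With 1 library left out they ran from 44 to 626 higher and from 5 to 712 lower, and limma-voom called 7 lower. Genes called in the other lists, 5, became 20, 1, 14, 12 and 2 under the same settings in the same order, 3 in limma-voom and 6 to 37 with 1 library left out. The values 6, 626, 712 and 37 come from leaving out WT replicate 2, and the cause was not tested. The median log2 fold change of the ribosomal genes (0.18) ran from 0.071 to 0.28 over left-out libraries and was 0.077 with the coding length trend removed. The subunit difference (-0.016) ran from -0.068 to -0.0024 and was -0.035 with pseudogene counts added. Of the medians of the other lists, 12 values moved by more than the spread between replicates. The share difference (0.317 percentage points) ran from 0.0306 to 0.603. Per coding kilobase, the percentile ratio of levels was 5.14.

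Near-zero values changed sign. With the coding length trend removed, the log2 fold change of RPL10 was -0.0323, of RPL41 -0.147 and of RPS19 -0.0561. Over left-out libraries, RPL10 ran from -0.0581 to 0.144, RPS19 from -0.0509 to 0.174, RPSA from -0.0634 to 0.154, RPL13A from -0.129 to 0.0893, RPL3 from -0.166 to 0.109, RPL7A from -0.114 to 0.0741, RPLP0 from -0.159 to 0.0567 and RPS2 from -0.185 to 0.0727. These were 9 of 28 named genes. Of the higher values, RPL38 ran from 0.218 to 0.594, RPL39 from 0.247 to 0.538, RPL35A from 0.215 to 0.539, RPL36AL from 0.272 to 0.838 and RPL39L from 0.277 to 0.782 over left-out libraries, each lowest without either KO replicate 2 or WT replicate 1. Over the tested genes, the difference of KO replicates 1 and 2 correlated at 0.148 with the difference of WT replicates 1 and 2. With 2 pairs this cannot show that the numbers pair the libraries, so the replicate block is given only as an alternative. Depth limits RPL3L and RPL10L, which had 11 counts or fewer in every library.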
